A study of Mus musculus with 3 samples.

Results

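Glycolysis and glycogen metabolism was followed through 43 genes for glucose uptake, glycolysis, lactate handling, the entry of pyruvate into mitochondria and the making and breaking of glycogen. Their symbols were chosen by textbook function, with earlier results of these data known, and all 43 were found among the 23238 gene symbols counted in the study. The RNA came from c2c12, an immortalized mouse myoblast line whose cells form myotubes once serum is lowered. After a change to myogenic induction medium with 2% horse serum, cells were cultured for 2 days on TCP (tissue culture plate), on GelMA (a methacrylated gelatin hydrogel, 15% w/v) or on GelMA-PSS (15% w/v GelMA with 1% w/v PSS, the sulfonated polymer poly(sodium-4-styrenesulfonate), a synthetic heparin mimic). Each substrate had 1 library, so no difference is backed by a replicate, none was given a p-value, and a difference between substrates cannot be told apart from one between cultures. The TCP library held 119799095 counts, the GelMA library 87071144 and the GelMA-PSS library 192171443.

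Glycolysis turns glucose into pyruvate in the cytosol, and the pyruvate is either reduced to lactate or passed to the mitochondria through pyruvate dehydrogenase. Skeletal muscle stores glucose as glycogen and, as fibers mature, builds its pathway from muscle isoforms of several enzymes in place of those used by proliferating cells. Many of the genes are also known targets of the hypoxia-inducible factor HIF-1.

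Levels are given as CPM (counts scaled to library size with TMM factors), and ratios between libraries as differences of log2(CPM + 1). A gene was tested when it reached 1 CPM in at least 1 library, which held for 42 of the 43 genes and for 13169 symbols in all. The exception was Pygl, the liver isoform of glycogen phosphorylase, with 8 counts in TCP, 37 in GelMA and 75 in GelMA-PSS. The 43 genes together took 1.75% of all counts in TCP, 2.05% in GelMA and 2.50% in GelMA-PSS, and their summed level was 17190, 19660 and 26490 CPM. Gapdh alone took 0.498%, 0.552% and 0.757% of all counts. This gene for glyceraldehyde-3-phosphate dehydrogenase was also the reference gene of the qPCR in the study.

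Compared with TCP, the GelMA-PSS library had higher levels of genes along the trunk of glycolysis and of the lactate exporter, and a lower level of the muscle glycogen phosphorylase. Of the 42 genes tested, 8 were at least 2-fold higher (19.0%, against 3.72% of all genes tested): Aldoc, Pgk1, Eno1, Pgam1, Pdk1, Pfkl, Ldha and Slc16a3. Only Pygm was at least 2-fold lower, which is 2.38% of the 42 against 3.13% of all genes. At 1.5-fold, 17 genes were higher (40.5%, against 13.2% of all genes) and 8 were lower (19.0%, against 11.5%). Corrected for transcript length and GC content, 15 were higher (35.7%, against 8.27%) and 5 lower, and the lower share, 11.9%, was then near the 9.2% of all genes. The median log2 ratio of the 42 genes was 0.35, and that of all genes tested was 0.04. With total counts, which shifted the median of all genes by -0.10, 5 of the 42 were past 2-fold higher and 1 lower, against 2.57% and 4.38% of all genes.

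GelMA stood between the 2 other substrates for many of these genes. Against TCP, none of the 42 genes passed 2-fold in GelMA, where 0.706% of all genes were higher and 0.296% lower. At 1.5-fold, 9 were higher (21.4%, against 3.5% of all genes) and 2 were lower (4.76%, against 2.12%). The 9 were Slc2a1, Pfkl, Pfkfb3, Aldoc, Pgk1, Pgam1, Eno1, Slc16a3 and Pdk1, and the 2 were Pgam2 and Pygm. Aldoc, at 0.99, lay just inside the 2-fold limit. The median log2 ratio was 0.09 for the 42 genes and -0.01 for all genes.

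Between the hydrogels with and without PSS, none of the 42 genes passed 2-fold either, while 1.77% of all genes were higher in GelMA-PSS and 2.33% lower. At 1.5-fold, Aldoc, Pgk1, Gapdh, Tpi1 and Pgam1 were higher, which is 11.9% of the 42 against 11.0% of all genes, and Pfkfb2 and Pygm were lower, or 4.76% against 10.8%. The first share is close to that of all genes. The split of 5 higher and 2 lower also depended on scaling: with total counts alone, 2 were higher and 5 lower, while 6.22% of all genes were higher and 16.3% lower. With the length and GC correction 3 were higher (Pfkp, Aldoc and Pdk1) and the same 2 lower, against 3.71% and 5.45% of all genes, so that Pgk1, Gapdh, Tpi1 and Pgam1 were no longer past the limit. The median of the 42 genes was 0.21, against 0.03 for all genes, and scaling by total counts shifted these medians by -0.15 and -0.13. The 3 comparisons share libraries in pairs, so their values are given side by side.

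Counting error was small beside most of these differences. The exact Clopper-Pearson intervals at 95% of a gene's CPM overlapped between GelMA-PSS and TCP for 2 of the 42 genes (Pfkfb1 and Ugp2), and for 8 genes in each of the other comparisons. They cover counting error only. Whether a read pair entered the counts once or as 2 reads is unknown, and with 2 reads the true intervals are wider: each library listed more genes at 2 counts than at 1 (543 against 426 in TCP, 866 against 651 in GelMA and 480 against 441 in GelMA-PSS).

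**Figure D1:**
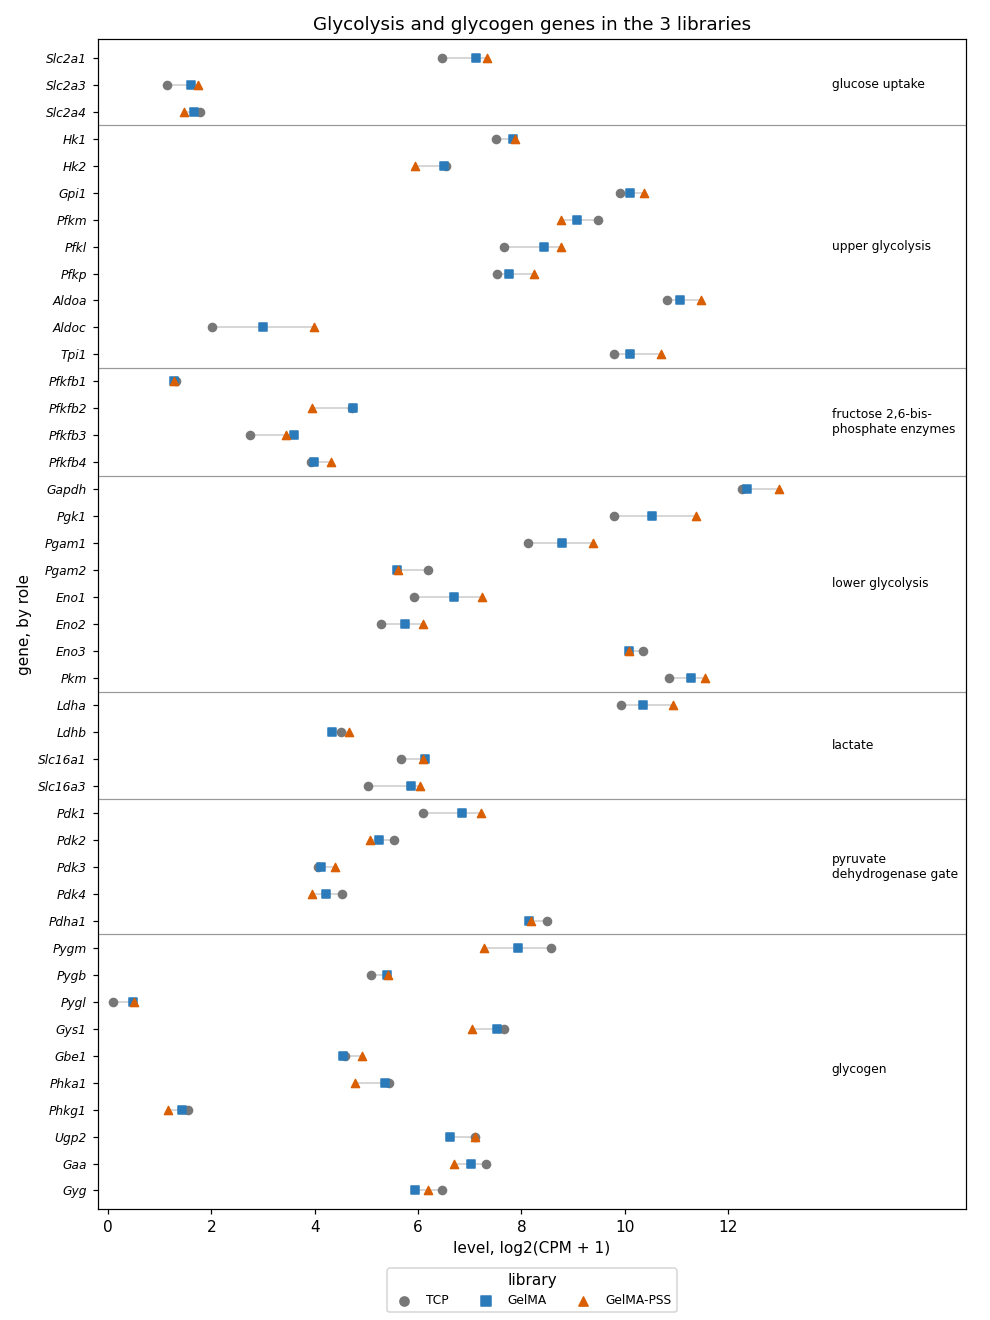
Level of each of the 43 genes on log2(CPM + 1) (horizontal axis) in the TCP, GelMA and GelMA-PSS libraries, with genes ordered by role from uptake to glycogen (vertical axis) and 1 symbol a library. Pgk1 read 884 CPM in TCP, 1470 in GelMA and 2668 in GelMA-PSS, and Pygm, in the reverse order of libraries, 378, 243 and 153 CPM.

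Glucose enters the cell through facilitative transporters. Slc2a1, which encodes the widely expressed GLUT1, had 10629 counts in TCP, 12468 in GelMA and 29147 in GelMA-PSS, or 87.3, 137 and 161 CPM. Its log2 ratios were 0.65 for GelMA against TCP, 0.87 for GelMA-PSS against TCP and 0.23 for GelMA-PSS against GelMA. Both hydrogels were thus past 1.5-fold above the plate. The other transporters were near the limit of the filter. Slc2a3 (GLUT3), a high-affinity transporter, had 148, 187 and 426 counts in TCP, GelMA and GelMA-PSS, or 1.22, 2.06 and 2.35 CPM, and passed 1.5-fold between GelMA-PSS and TCP (log2 0.60), but not with total counts (0.53). Slc2a4, for the insulin-responsive GLUT4 of muscle and fat, had 295, 196 and 319 counts, or 2.42, 2.16 and 1.76 CPM, and passed no limit (log2 -0.31 between GelMA-PSS and TCP). By reads per kilobase of transcript, Slc2a1 made up 95.5% of the 3 transporters in TCP, 96.8% in GelMA and 97.5% in GelMA-PSS.

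Upper glycolysis spans the steps from glucose to the triose phosphates. Among its 9 genes, 7 had higher and 2 lower levels in GelMA-PSS than in TCP, with 2 past 2-fold higher (3.72% of all genes), and the median log2 ratio was 0.64. Against GelMA the median was 0.33, and for GelMA against TCP it was 0.24. Hexokinase, which traps glucose in the cell by phosphorylation, was read from its main isoforms. Hk1 had 22132 counts in TCP, 20613 in GelMA and 42184 in GelMA-PSS (182, 227 and 233 CPM), with log2 ratios of 0.32 for GelMA and 0.36 for GelMA-PSS against TCP. Hk2, the insulin-regulated isoform of muscle, had 11215, 8155 and 10869 counts (92.1, 89.7 and 60.0 CPM). Its level was lower in GelMA-PSS than in either other library, with log2 ratios of -0.61 against TCP and -0.57 against GelMA, which became -0.35 and -0.22 once transcript length and GC content were corrected for. The share of Hk2 in the reads per kilobase of both hexokinases was 26.1% in TCP, 21.7% in GelMA and 15.3% in GelMA-PSS.

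Phosphofructokinase makes the first step committed to glycolysis and is assembled from muscle, liver and platelet subunits. Pfkm, the muscle subunit, had 87306 counts in TCP, 48572 in GelMA and 79025 in GelMA-PSS, or 717, 535 and 436 CPM. The liver subunit Pfkl had 24643, 31544 and 79006 counts, or 202, 347 and 436 CPM. For the platelet subunit Pfkp the counts were 22332, 19693 and 54581, or 183, 217 and 301 CPM. The muscle subunit was thus highest on the plate, and both other subunits were highest on GelMA-PSS. Between GelMA-PSS and TCP the log2 ratios were -0.72 for Pfkm, 1.10 for Pfkl and 0.71 for Pfkp. Between GelMA and TCP they were -0.42, 0.78 and 0.24, and between GelMA-PSS and GelMA -0.29, 0.33 and 0.47. With total counts Pfkl was inside the 2-fold limit. Shares within a family are free of the scaling between libraries. Where isoforms differ in length, the shares still carry the length trend of GelMA-PSS described below, and they were not corrected for it. By reads per kilobase, Pfkm accounted for 71.7% of the family in TCP, 56.1% in GelMA and 44.4% in GelMA-PSS, Pfkl for 15.6%, 28.1% and 34.3%, and Pfkp for 12.7%, 15.8% and 21.3%. As a share of counts, Pfkm stood at 65.0% in TCP (exact Clopper-Pearson 95% interval 64.8 to 65.3), 48.7% in GelMA (48.4 to 49.0) and 37.2% in GelMA-PSS (37.0 to 37.4), so that the order of the libraries exceeded counting error.

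Aldolase cleaves fructose 1,6-bisphosphate. Aldoa, the muscle form, had 220243 counts in TCP, 194398 in GelMA and 511193 in GelMA-PSS, or 1809, 2139 and 2822 CPM, and passed 1.5-fold between GelMA-PSS and TCP (log2 0.64), but not with total counts (0.53) or corrected for length and GC content (0.44). Aldoc, the form known from brain, was far scarcer, with 367, 633 and 2688 counts. Its level was 3.01 CPM in TCP (Clopper-Pearson 95% interval 2.71 to 3.34), 6.97 in GelMA (6.43 to 7.53) and 14.8 in GelMA-PSS (14.3 to 15.4). No other of the 42 genes had a log2 ratio as large as that of Aldoc in any of the 3 comparisons: 0.99 for GelMA against TCP, 0.99 for GelMA-PSS against GelMA and 1.98 for GelMA-PSS against TCP. With a pseudocount of 0.1 CPM it passed 2-fold in all 3. By reads per kilobase it nevertheless remained under 1% of both aldolases, at 0.0926% in TCP, 0.181% in GelMA and 0.292% in GelMA-PSS. Tpi1, for triose phosphate isomerase, had 107314, 99872 and 299442 counts, or 881, 1099 and 1653 CPM. It was past 1.5-fold in GelMA-PSS against TCP (log2 0.91) and against GelMA (0.59), the latter at 0.31 after the correction. Gpi1, for glucose-6-phosphate isomerase, passed no limit, with 956, 1095 and 1317 CPM.

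The bifunctional PFKFB enzymes set the level of fructose 2,6-bisphosphate, an activator of phosphofructokinase. Pfkfb2, the heart isoform, had 3092 counts in TCP, 2333 in GelMA and 2628 in GelMA-PSS, or 25.4, 25.7 and 14.5 CPM. It was level between the plate and GelMA (log2 0.02) and lower on GelMA-PSS, at -0.77 against TCP and -0.78 against GelMA. With the length and GC correction and a transcript taken as 1759 bases, it passed 2-fold against GelMA, at -1.08. Of its windows of read length, 61.4% also stood in the gene model Gm29427, so this count is uncertain. Pfkfb3, the inducible isoform with high kinase activity, was higher on both hydrogels, with 692 counts in TCP, 1008 in GelMA and 1793 in GelMA-PSS (5.68, 11.1 and 9.90 CPM). Its log2 ratio was 0.86 for GelMA and 0.71 for GelMA-PSS against TCP. Pfkfb4, with 14.3, 15.0 and 19.0 CPM, and Pfkfb1, the liver and muscle isoform, with 1.48, 1.42 and 1.44 CPM, passed no limit. Within the family, Pfkfb2 fell from 65.9% of the reads per kilobase in TCP to 59.2% in GelMA and 43.6% in GelMA-PSS, and Pfkfb3 made up 11.7%, 20.3% and 23.6%.

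Lower glycolysis, the part that yields ATP and NADH, held the most abundant transcripts of the pathway. Its 8 genes summed to 9388 CPM in TCP, 10970 in GelMA and 15700 in GelMA-PSS. In GelMA-PSS against TCP, 6 of the 8 were past 1.5-fold higher and 1 was past it lower (13.2% and 11.5% of all genes), with a median log2 ratio of 0.76. The median was 0.44 in GelMA-PSS against GelMA, where 3 were past 1.5-fold higher and none lower (11.0% and 10.8% of all genes). With the length and GC correction that median was 0.28, and those 3 (Gapdh, Pgk1 and Pgam1) were inside the limit. In GelMA against TCP the median was 0.45, where 3 were higher and 1 was lower (3.5% and 2.12% of all genes). Gapdh had 597076 counts in TCP, 480802 in GelMA and 1455356 in GelMA-PSS, or 4903, 5291 and 8034 CPM. It was level between GelMA and TCP (log2 0.11) and past 1.5-fold on GelMA-PSS, at 0.71 against TCP and 0.60 against GelMA. Those values became 0.42 and 0.23 with the length and GC correction, which put Gapdh inside the 1.5-fold limit in both.

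Pgk1, for the ATP-forming phosphoglycerate kinase, had 107655 counts in TCP, 133583 in GelMA and 483319 in GelMA-PSS. Its level was 884, 1470 and 2668 CPM, which gave log2 ratios of 0.73 for GelMA against TCP, 0.86 for GelMA-PSS against GelMA and 1.59 for GelMA-PSS against TCP. The last was 1.39 after correction. Of the 8 genes past 2-fold higher, Pgk1 was the most abundant per kilobase of transcript in GelMA-PSS, at 1462 CPM per kilobase. Phosphoglycerate mutase moved in opposite directions in its isoforms. Pgam1, the form of most tissues, had 33950, 40149 and 120258 counts in TCP, GelMA and GelMA-PSS, or 279, 442 and 664 CPM. Pgam2, the muscle form, had 8770, 4300 and 8627 counts, or 72.0, 47.3 and 47.6 CPM. Against TCP, Pgam1 was higher by log2 0.66 in GelMA and 1.25 in GelMA-PSS, and Pgam2 was lower, at -0.60 and -0.59. The ratio of Pgam2 in GelMA was inside the 1.5-fold limit with total counts and with the length and GC correction. The transcript of Pgam2 is the shortest of the 42, at 840 bases, and its ratio for GelMA-PSS against TCP was -1.01 after the length and GC correction. By reads per kilobase, Pgam2 held 35.3% of the family in TCP, 18.5% in GelMA and 13.2% in GelMA-PSS.

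Enolase was read from 3 members and from a further symbol. Eno3, the muscle enolase, had 158761 counts in TCP, 98032 in GelMA and 196556 in GelMA-PSS, or 1304, 1079 and 1085 CPM, and passed no limit (log2 -0.27 for GelMA and -0.26 for GelMA-PSS against TCP). Eno1, the form of most tissues, had 7304, 9331 and 27103 counts, or 60.0, 103 and 150 CPM, with log2 ratios of 0.77 for GelMA and 1.30 for GelMA-PSS against TCP. Eno2, the neuronal enolase, had 4608, 4812 and 12160 counts, or 37.8, 53.0 and 67.1 CPM, and passed 1.5-fold between GelMA-PSS and TCP (0.81). More reads were listed under Eno1b, whose transcript shares 58.3% of the windows of read length in Eno1, than under Eno1, and which gene they came from is not known. That symbol stood on 2 lines of each file, with 249481, 282363 and 789957 counts in sum, or 2049, 3107 and 4361 CPM, so the level of Eno1 alone is uncertain. The ratios of Eno1b were somewhat below those of Eno1, at 0.60 for GelMA and 1.09 for GelMA-PSS against TCP. With the length and GC correction the last was 0.90, inside the 2-fold limit, and that of Eno1 was 1.22. Eno3 made up 95.1%, 90.8% and 87.6% of the 3 members in TCP, GelMA and GelMA-PSS, and 41.3%, 27.7% and 21.5% when Eno1b, added after its counts were seen, was put in the family. The order of the libraries was the same in both forms. Pkm, for the pyruvate kinase that ends the pathway, had 224967, 225712 and 541090 counts, or 1848, 2484 and 2987 CPM, and passed 1.5-fold between GelMA-PSS and TCP (0.69), but not with total counts (0.58). The counts per symbol do not separate its splice forms.

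**Figure D2:**
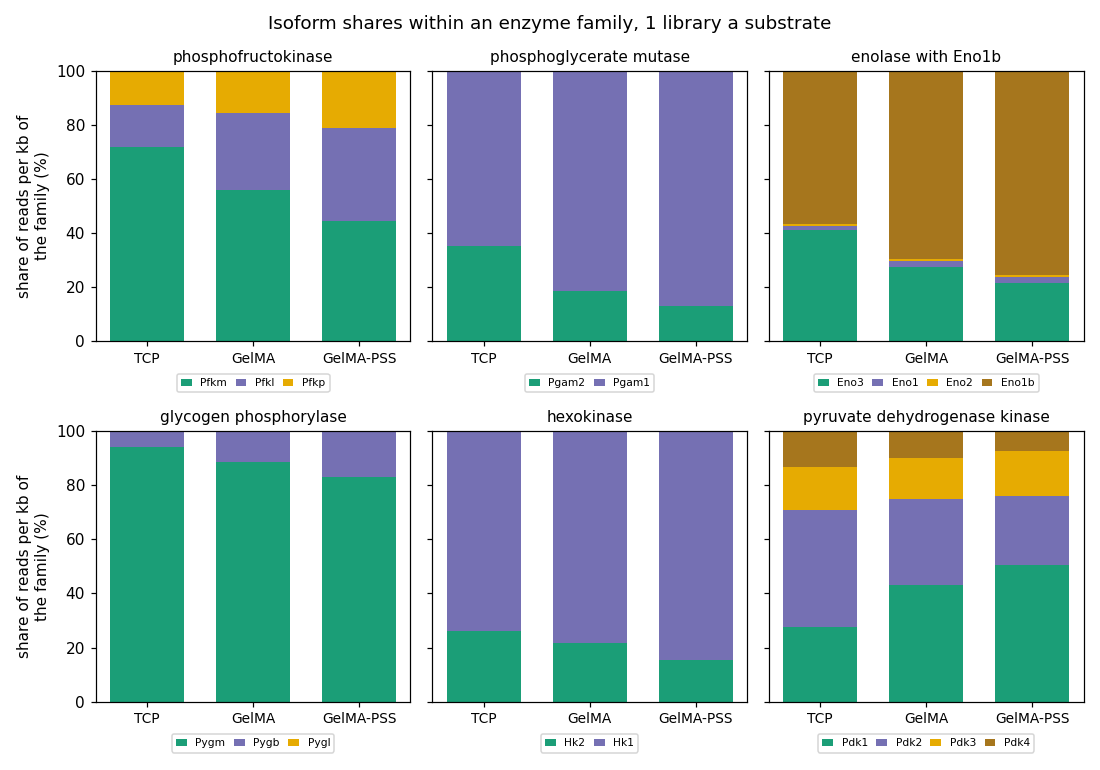
Share of each isoform in the reads per kilobase of its enzyme family (vertical axis, %) in the TCP, GelMA and GelMA-PSS libraries (horizontal axis), for 6 families, with colours for the genes and the enolases drawn with Eno1b. Pfkm went from 71.7% in TCP to 44.4% in GelMA-PSS, Pgam2 from 35.3% to 13.2%, Pygm from 94.0% to 83.0% and Pdk1 from 27.7% to 50.3%.

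Lactate dehydrogenase regenerates NAD by reducing pyruvate. Ldha, the subunit of fast muscle and proliferating cells, had 117980 counts in TCP, 118763 in GelMA and 352660 in GelMA-PSS, or 969, 1307 and 1947 CPM. Its log2 ratio was 0.43 for GelMA and 1.01 for GelMA-PSS against TCP, the latter falling under 2-fold with median-of-ratios scaling, with total counts and with the length and GC correction (0.80). Ldhb, the subunit that predominates in heart, had 2651, 1746 and 4408 counts (21.8, 19.2 and 24.3 CPM) and passed no limit. Ldha made up 97.0%, 98.0% and 98.3% of the reads per kilobase of both subunits. Lactate leaves the cell through monocarboxylate transporters. Slc16a3 (MCT4), the exporter of glycolytic muscle, had 3878, 5174 and 11771 counts in TCP, GelMA and GelMA-PSS, or 31.9, 56.9 and 65.0 CPM, with log2 ratios of 0.82 for GelMA and 1.01 for GelMA-PSS against TCP. The second stood under 2-fold with either other scaling and at 1.21 with the correction. Slc16a1 (MCT1), which carries lactate in either direction, had 49.8, 68.8 and 67.5 CPM and passed no limit.

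Pyruvate dehydrogenase commits pyruvate to the mitochondria, and the PDK kinases switch it off. Pdk1 was the only one of these 5 genes past 2-fold between GelMA-PSS and TCP, with 8209 counts in TCP, 10399 in GelMA and 26717 in GelMA-PSS (67.4, 114 and 148 CPM). Its log2 ratio was 0.75 for GelMA against TCP and 1.12 for GelMA-PSS against TCP, or 1.30 with the correction. The other kinases passed no limit as reported. Pdk2 had 5514, 3370 and 5879 counts (45.3, 37.1 and 32.5 CPM), and Pdk3 1912, 1499 and 3627 (15.7, 16.5 and 20.0 CPM). Pdk4, which is known to be induced by fasting, had 2672, 1597 and 2627 (21.9, 17.6 and 14.5 CPM) and, at log2 -0.57 between GelMA-PSS and TCP, lay just inside the 1.5-fold limit. With total counts (-0.67), with a pseudocount of 0.1 CPM and with the correction (-0.60) it was past that limit. Per kilobase, Pdk2 was the leading kinase in TCP, ahead of Pdk1 with 27.7% of the family. On both hydrogels Pdk1 led, with 42.9% against 32.1% in GelMA and 50.3% against 25.6% in GelMA-PSS. As a share of counts, without length, Pdk1 led in TCP as well (44.8% against 30.1%). Pdha1, for the catalytic subunit that the kinases phosphorylate, had 358, 283 and 289 CPM (log2 -0.34 for GelMA and -0.31 for GelMA-PSS against TCP).

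Of the 9 glycogen genes tested, 6 had lower and 2 higher levels in GelMA-PSS than in TCP and Ugp2 was level, with 4 past 1.5-fold lower and 1 of these past 2-fold, against 11.5% and 3.13% of all genes, and the median log2 ratio was -0.39. With the length and GC correction 1 of the 4, Pygm, was past 1.5-fold. The 10 genes summed to 1062 CPM in TCP, 819.7 in GelMA and 693.6 in GelMA-PSS. The median was -0.27 against GelMA, or -0.16 corrected, and -0.14 for GelMA against TCP. Pygm, the muscle phosphorylase that releases glucose units from glycogen, had 46017 counts in TCP, 22081 in GelMA and 27724 in GelMA-PSS. At 378, 243 and 153 CPM, its log2 ratio was -0.64 for GelMA against TCP, -0.66 for GelMA-PSS against GelMA and -1.30 for GelMA-PSS against TCP, and the correction moved none of these by more than 0.01. The brain isoform Pygb had 4011, 3763 and 7611 counts, or 32.9, 41.4 and 42.0 CPM (log2 0.34 between GelMA-PSS and TCP). Within the phosphorylases, Pygm held 94.0% of the reads per kilobase in TCP, 88.7% in GelMA and 83.0% in GelMA-PSS, and Pygb 6.02%, 11.1% and 16.8%.

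Glycogen synthesis showed lower levels of its main enzyme. Gys1, the muscle glycogen synthase, had 24678 counts in TCP, 16695 in GelMA and 23800 in GelMA-PSS (203, 184 and 131 CPM; log2 -0.62 between GelMA-PSS and TCP, or -0.50 corrected). Ugp2, which makes the UDP-glucose it uses, was lowest in GelMA, with 136, 97.3 and 136 CPM, and Gyg (glycogenin, the primer of the particle) likewise, with 87.7, 60.3 and 71.8 CPM. Neither passed a limit, nor did the branching enzyme Gbe1, with 23.1, 22.4 and 29.3 CPM. Between the hydrogels the log2 ratio of Gyg was 0.25, or -0.02 corrected, so its order there depended on the correction. Breakdown is switched on by phosphorylase kinase. Its muscle regulatory subunit Phka1 had 5182, 3617 and 4780 counts (42.6, 39.8 and 26.4 CPM) and was past 1.5-fold lower in GelMA-PSS than in TCP, at log2 -0.67. That transcript is the longest of the 42, at 6115 bases, and the ratio was -0.38 after the correction. The catalytic subunit Phkg1 had 233, 153 and 223 counts, or 1.91, 1.68 and 1.23 CPM (-0.39). Gaa, the lysosomal enzyme that also degrades glycogen, had 19158, 11784 and 18502 counts (157, 130 and 102 CPM) with a log2 ratio of -0.62 in GelMA-PSS against TCP and -0.46 corrected, inside the limit.

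**Figure D3:**
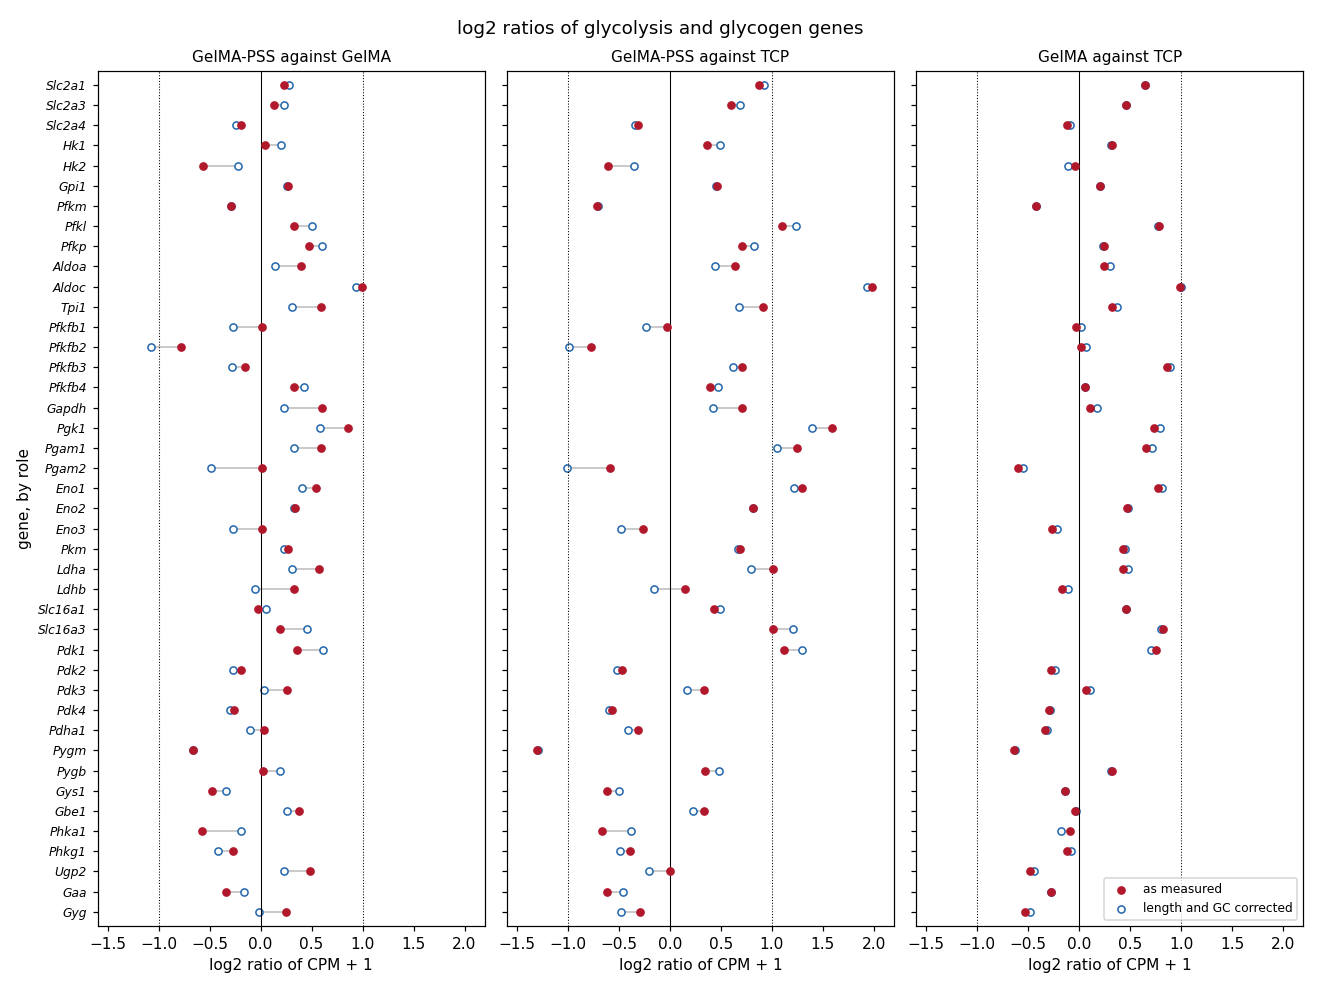
Ratios of log2(CPM + 1) of the 42 genes tested (horizontal axis, dotted lines at 2-fold) in the 3 comparisons, with genes by role (vertical axis), filled points as measured and open points corrected for transcript length and GC content. Aldoc at 1.98 and Pygm at -1.30 bound the ratios of GelMA-PSS against TCP, and Pgam2 moves from -0.59 to -1.01 with the correction.

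Sorted by isoform, the 7 genes listed as muscle isoforms and their listed counterparts divided in direction. Against TCP, those 7 (Slc2a4, Pfkm, Pgam2, Eno3, Pygm, Phka1 and Phkg1) had lower levels in GelMA and in GelMA-PSS, with median log2 ratios of -0.27 and -0.59, although the counting intervals of Slc2a4 and Phkg1 overlapped between GelMA and TCP. The 8 tested of 9 counterparts among the 43 genes (Slc2a1, Slc2a3, Pfkl, Pfkp, Pgam1, Eno1, Eno2 and Pygb) had higher levels, with medians of 0.56 and 0.84. The division depends on which genes were listed. Aldoa and Ldha, also forms of muscle but not on the list, were higher in GelMA-PSS than in TCP (0.64 and 1.01), and Hk2 and Gys1 were lower (-0.61 and -0.62). The other forms of phosphorylase kinase lie outside the 43 genes: Phka2 was at -0.02 in GelMA and -0.28 in GelMA-PSS against TCP, and Phkg2 at -0.05 and 0.17. With all 6 alternative settings of scaling, pseudocount, filter and length, both medians kept their sign. At 1.5-fold in GelMA-PSS against TCP, 4 of the 7 were lower (11.5% of all genes) and 7 of the 8 were higher (13.2% of all genes). Between the hydrogels the medians were -0.27 and 0.33. There Pgam2 and Eno3 were level at 0.01, and turned lower with total counts (-0.13 and -0.14) and with the correction (-0.49 and -0.27). The counterpart Pygb, at 0.02, also turned lower with total counts (-0.12), but was at 0.19 with the correction. The muscle isoforms summed to 2518 CPM in TCP, 1947 in GelMA and 1751 in GelMA-PSS, and the counterparts to 884, 1342 and 1824 CPM. The counterpart sums leave out Eno1b (2049, 3107 and 4361 CPM). With it they would stand above those of the muscle isoforms in each library. In bulk RNA, fewer myotubes and less of a transcript per myotube cannot be told apart.

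Markers of muscle differentiation were also lower in sum on the hydrogels. The 14 markers, all above the filter, summed to 39700 CPM in TCP, 28410 in GelMA and 26490 in GelMA-PSS, with Myh3, the embryonic myosin heavy chain, as the most abundant by the mean of the libraries (10180, 6355 and 3037 CPM). In GelMA-PSS the most abundant was Mylpf, at 7158 CPM. Between the hydrogels the fall of Myh3 was larger than that of the sum. There 6 of the 14 were higher in GelMA-PSS, Mylpf most (log2 0.56), and 8 lower, or 2 and 12 with the length and GC correction. Against TCP, 2 were higher in GelMA-PSS (Myod1 at 0.34 and Mylpf at 0.05) and 12 lower. In GelMA-PSS against TCP, 4 of the 14 were past 2-fold lower and none was past it higher (3.13% and 3.72% of all genes), and the median log2 ratio was -0.53, or -0.79 with the length and GC correction. Between the hydrogels 4 were also past 2-fold lower in GelMA-PSS (Mef2c, Myh1, Myh3 and Myh8, against 2.33% of all genes), and the correction left none of them past it. The median there was -0.13, or -0.40 corrected. In GelMA against TCP 1 was past it (0.296% of all genes), and the median was -0.46. Myog, the factor that starts terminal differentiation, differed little (1100, 894.8 and 1037 CPM). The 5 proliferation markers summed to 272, 364 and 441 CPM, with Pcna as the most abundant by the mean of the libraries and Top2a in GelMA, and 2 of them, Cdk1 (log2 1.47) and Ccnb1 (1.03, or 0.86 corrected and inside the limit), were past 2-fold higher in GelMA-PSS than in TCP, as were 3.72% of all genes. Mki67 was level in that comparison (0.01, or 0.55 corrected). Between the hydrogels, 2 of the 5 were past 1.5-fold higher in GelMA-PSS and 1 lower (11.0% and 10.8% of all genes). Those higher were Cdk1 (0.98) and Pcna (0.62, or 0.2 corrected), and the lower was Mki67 (-0.79, or -0.03 corrected). The part of either marker list in the glycolytic differences was not tested.

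Markers of other cell types were low, with the most abundant gene by the mean of the libraries in brackets. Adipocyte markers summed to at most 0.0986 CPM in a library (Adipoq; Lep at 0), hepatocyte markers to at most 0.271 (Pklr; Apoa1 at 0), endothelial markers to at most 0.905 (Tek), and macrophage markers to at most 1.85 (Cd68; none at 0 in all libraries). Osteoblast markers reached 12.4 CPM in GelMA, most of it Dmp1, with Ibsp at 0.

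Transcript length moved with the ratios of the GelMA-PSS library and is given beside the results for that reason. Across 13054 genes with a transcript in GENCODE, Spearman's rho between length and log2 ratio was -0.66 in GelMA-PSS against GelMA, -0.50 in GelMA-PSS against TCP and 0.21 in GelMA against TCP; genes are not independent replicates, and each ratio shares its libraries and depth over all genes. Over the 42 genes, rho was -0.30, -0.07 and 0.15. The genes ran from 840 to 6115 bases, with a median of 2791 bases against 2912 for all genes. Within length classes the 42 genes lay furthest from all genes where transcripts are long. Under 2000 bases, the median log2 ratio in GelMA-PSS against TCP was 0.40 for 12 of them and 0.34 for all genes. Over 3000 bases it was 0.39 for 15 of them and -0.18 for all genes. For the 15 from 2000 to 3000 bases it was 0.33, against 0.10. In GelMA-PSS against GelMA the short genes were level with all genes of their class (0.36 against 0.40). The corresponding medians were 0.26 against 0.13 in the middle class and 0.04 against -0.23 in the long class. With length and GC content corrected, 7 genes were past 2-fold higher and 2 lower in GelMA-PSS against TCP (2.00% and 2.38% of all genes). Of these, 8 were among the 9 named above: Ldha was lost and Pgam2 was added. The corrected median was 0.43 in that comparison, 0.16 in GelMA-PSS against GelMA and 0.14 in GelMA against TCP. The part of length in any single ratio was not tested.

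**Figure D4:**
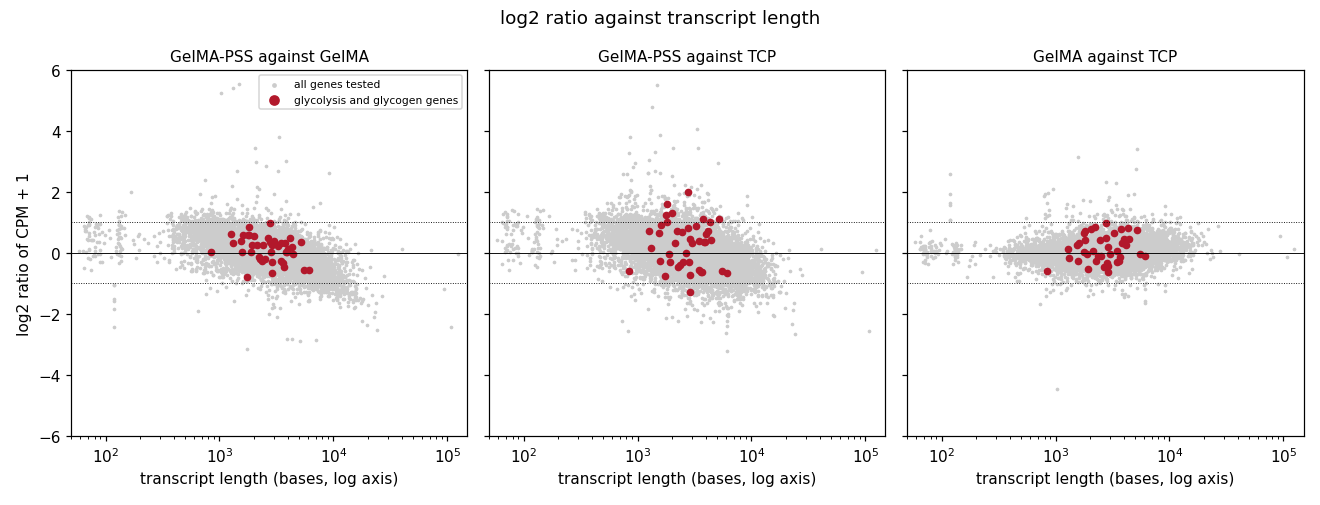
Ratio of log2(CPM + 1) (vertical axis) against transcript length in bases (horizontal, log axis) in the 3 comparisons, with all genes tested that have a transcript in grey and the 42 glycolysis and glycogen genes in red; dotted lines mark 2-fold. Across all genes rho is -0.66, -0.50 and 0.21 from left to right, and the 42 genes span 840 to 6115 bases.

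Several glycolytic genes have processed copies in the mouse genome, and reads from them could be split by the authors' counting. Of the windows of read length in its transcript, Gapdh shared 85.7% with transcripts of 83 other genes, Pgk1 67.0% with copies led by Pgk1-rs7, and Pgam1 39.7%. Pkm shared 9.52%, Ldhb 8.47%, Gpi1 4.78%, Ldha 1.17% and Tpi1 0.73%. Apart from these, Eno1 and Pfkfb2, no gene of the 43 shared a window, and the levels of those that did are uncertain to that extent.

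The wider pathway was read from 7 lists of genes outside the 43. Of 38 further glycolysis and glycogen genes, 21 were tested, and none passed 2-fold in any comparison. At 1.5-fold, 3 were higher and 3 lower in GelMA-PSS against TCP, which is near the shares of all genes (13.2% and 11.5%), and the median log2 ratio was -0.04, or 0.04 corrected. Gsk3b, the kinase that inhibits glycogen synthase, had 97.1, 99.5 and 52.3 CPM in TCP, GelMA and GelMA-PSS. Its ratio of -0.91 against GelMA was -1.27 when corrected with a transcript taken as 1750 bases. Phosphoglucomutase, which links glycogen to glycolysis, was higher in GelMA-PSS than in TCP under Pgm1 (log2 0.88) and Pgm2 (0.78). The related symbol Pgm2l1, with 2.40, 3.19 and 2.25 CPM, was at -0.07, or 0.33 corrected. Pgm1 and Pgm2 were chosen after their values were seen.

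The tricarboxylic acid cycle genes, all 18 tested, had median log2 ratios of 0.21 in GelMA-PSS against TCP, 0.32 against GelMA and -0.07 for GelMA against TCP, and the first 2 were 0.02 and 0.07 after correction. Only Pcx, for the pyruvate carboxylase that refills the cycle, passed 2-fold, with 51.1, 38.6 and 23.2 CPM (log2 -1.11 in GelMA-PSS against TCP, or -0.92 corrected). For pyruvate import and pyruvate dehydrogenase, 9 of 11 symbols were found and tested and none passed 2-fold, with a median of -0.06 in GelMA-PSS against TCP, or -0.18 corrected. Pdpr, a regulatory subunit of the phosphatase that opposes the PDK kinases, had 16.1, 19.4 and 9.80 CPM (-0.91 against GelMA). Of 9 genes of the cytosolic NADH shuttles, Gpd1l passed 2-fold, at -1.04 in GelMA-PSS against TCP and -0.89 corrected, and the median was 0.04, or -0.05 corrected. Among 8 pentose phosphate genes, which branch off at glucose-6-phosphate to give NADPH and ribose, Tkt (transketolase) passed 2-fold in GelMA-PSS against TCP, with 21.3, 31.4 and 44.6 CPM (log2 1.03). With total counts Tkt was inside the 2-fold limit. G6pdx, the entry enzyme, had 30.2, 46.9 and 53.4 CPM and was past 1.5-fold (0.80). The median of the list was 0.35, or 0.22 corrected.

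HIF-1 factors and targets outside glycolysis held the most genes past 2-fold among these lists. Of 21, 20 were tested, and 5 were past 2-fold higher in GelMA-PSS against TCP and none lower (3.72% and 3.13% of all genes), with a median log2 ratio of 0.60. At 1.5-fold, 10 were higher and 1 lower (13.2% and 11.5% of all genes). In GelMA against TCP, 1 was past 2-fold higher and 5 past 1.5-fold (0.706% and 3.5% of all genes), with a median of 0.30. Car9, for the membrane carbonic anhydrase IX, had 1219 counts in TCP, 3184 in GelMA and 11340 in GelMA-PSS, or 10.0, 35.0 and 62.6 CPM, with log2 ratios of 1.71 for GelMA and 2.53 for GelMA-PSS against TCP. Bnip3, a receptor for mitophagy, had 90.7, 155 and 318 CPM (1.80 in GelMA-PSS against TCP), and Ndrg1 had 113, 203 and 306 CPM (1.44). Ankrd37 and Higd1a, at 1.77 and 1.38, were the others past 2-fold. Against GelMA, Bnip3 (1.03), Ankrd37 (1.12) and Higd1a (1.14) were past 2-fold higher in GelMA-PSS (1.77% of all genes), and none of them was with total counts or with the length and GC correction (0.61, 0.57 and 0.80). The median against GelMA was 0.25. Hif1a itself, named after its values were seen, had 110, 135 and 136 CPM (0.31 in GelMA-PSS against TCP), and Vegfa, also a classical target, had 240, 292 and 248 CPM (0.05). The cause of these differences was not tested.

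Of 19 glucose-sensing and metabolic transcription factors, 17 were tested. Txnip, whose transcript is induced by glucose and whose product restrains glucose uptake, had 7528 counts in TCP, 13378 in GelMA and 42418 in GelMA-PSS, or 61.8, 147 and 234 CPM. It was past 2-fold higher in GelMA (log2 1.24) and in GelMA-PSS (1.90) against TCP, and past 1.5-fold between the hydrogels (0.67). The last ratio was inside the 1.5-fold limit with total counts and, at 0.58, with the length and GC correction. Foxo1 was past 2-fold lower in GelMA-PSS against TCP (-1.25), at -0.76 corrected, and Ppargc1b against GelMA (-1.06), at -0.93 corrected. Mlxip, which senses glucose phosphates, had 24.4, 28.2 and 15.4 CPM, and its ratio against GelMA was -0.83 and -0.24 corrected. The median of the list was -0.29 in GelMA-PSS against TCP, or -0.09 corrected.

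Sequences before the transcription start were searched for motifs of HIF-1 and of myogenic factors, since genes of the pathway are known targets of HIF-1 and several have muscle isoforms. RefSeq windows (GRCm38.p6) from 250 bases before to 50 bases after the start were matched for 41 of the 43 genes, all but Slc2a3 and Slc2a4. The 41 include Pygl, which did not pass the filter. Where a gene had several windows, the one nearest its GENCODE start was used for the 41. For the background of genes tested it was the one lowest on the chromosome, so the shares of these sets are not fully comparable. The motif ACGTG, the core of the element that HIF-1 binds, was searched on both strands and stood in the windows of 19 of the 41 (46.3%). It was found in 25.6% of the windows of 9861 genes tested and in 19.6% of all 32851 windows. Among genes past 1.5-fold in GelMA-PSS against TCP, it was in 8 of 16 windows of those higher and in 5 of 8 of those lower, and in 6 of the 17 others. The motif CAGCTG, a palindrome of the E-box form CANNTG to which myogenic factors bind, was in 11 of the 41 (26.8%), against 15.5% of those of genes tested and 16.3% of all windows. It was in 3 of 16, 5 of 8 and 3 of 17 windows of the same groups. CANNTG, which includes CAGCTG, was in 30 of the 41 (73.2%), against 63.4% of those of genes tested and 72.3% of all windows. Since CACGTG holds ACGTG on either strand and is a CANNTG as well, these motifs overlap. A match is a description of the letters and not a site.

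The 250 bases before the start are shown for the 2 genes with ACGTG upstream that lead in lower glycolysis, Pgk1 (chrX:106186850-106187099, plus strand) and Pgam1 (chr19:41911621-41911870, plus strand), and for 2 muscle isoforms with CAGCTG upstream, Pygm (chr19:6384158-6384407, plus strand) and Pgam2 (chr11:5803797-5804046, minus strand). Capitals mark ACGTG or its complement CACGT in Pgk1 and Pgam1, and CAGCTG in Pygm and Pgam2, and all run 5′ to 3′ on the strand of the gene. Pgk1 holds 2 ACGTG motifs and Pygm 2 CAGCTG motifs; Pygm also holds 1 ACGTG, on the other strand, which is not marked.
Pgk1: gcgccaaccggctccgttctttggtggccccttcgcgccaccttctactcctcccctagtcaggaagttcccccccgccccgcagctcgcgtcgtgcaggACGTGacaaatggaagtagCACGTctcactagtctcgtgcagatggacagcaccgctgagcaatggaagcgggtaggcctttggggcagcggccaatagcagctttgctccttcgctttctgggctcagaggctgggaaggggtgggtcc
Pgam1: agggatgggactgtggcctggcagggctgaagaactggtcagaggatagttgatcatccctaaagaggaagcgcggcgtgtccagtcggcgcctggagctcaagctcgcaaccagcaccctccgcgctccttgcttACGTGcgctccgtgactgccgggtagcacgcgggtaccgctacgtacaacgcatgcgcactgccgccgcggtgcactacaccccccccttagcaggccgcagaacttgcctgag
Pygm: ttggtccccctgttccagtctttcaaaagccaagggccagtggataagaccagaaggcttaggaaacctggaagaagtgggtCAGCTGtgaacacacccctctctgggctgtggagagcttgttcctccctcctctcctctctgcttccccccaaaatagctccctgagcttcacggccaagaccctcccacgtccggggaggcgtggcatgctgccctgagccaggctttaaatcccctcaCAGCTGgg
Pgam2: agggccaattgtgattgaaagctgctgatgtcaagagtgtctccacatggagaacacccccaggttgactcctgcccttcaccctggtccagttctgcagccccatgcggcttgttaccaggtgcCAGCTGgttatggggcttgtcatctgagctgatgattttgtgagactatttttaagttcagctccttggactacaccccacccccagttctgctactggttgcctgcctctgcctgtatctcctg

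These values come from 1 library a substrate, from an immortalized line and from 1 time point, so they describe these cultures and not the substrates at large. Transcript levels do not give enzyme activity, glucose uptake, lactate output or glycogen content. The methods of the study name a TruSeq kit and the sample labels name SMARTER, and the tool and annotation used for counting were not given in the sources used here. TopHat and edgeR are named without a version, and both a human (hg19) and a mouse build (mm10) are listed, so how reads were assigned is uncertain for every count. Ratios that involve GelMA-PSS carry a length trend, and those of genes with copies elsewhere in the genome depend on how shared reads were assigned.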

How the data were processed

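Gene counts deposited by the authors for the TCP, GelMA and GelMA-PSS libraries were used as given, and lines with the same symbol were summed. The 43 genes and the lists beside them were chosen by function, with earlier results of these data known, and genes named from the lists were those past 2-fold or with a stated function in the pathway. Counts were scaled with TMM (edgeR 4.0.16, R 4.3.3) and given as CPM. A gene was tested if any library reached 1 CPM. Ratios are differences of log2(CPM + 1). Alternatives were median-of-ratios scaling (DESeq2 1.42.0), total counts, a pseudocount of 0.1, no filter, a filter of 5 CPM, a limit of 1.5-fold, and a loess correction for transcript length and GC content (span 0.3). Intervals are exact Clopper-Pearson intervals. Lengths came from 1 GENCODE transcript a gene, preferring the basic set and then the longest coding sequence. Corrected ratios depend on that choice. Promoters came from RefSeq. Python 3.11.15, numpy 2.4.6, pandas 2.3.3, scipy 1.17.1, statsmodels 0.14.6 and matplotlib 3.10.9 were used. The code was tested on simulated data.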

Additional observations from a re-analysis of the deposited data

How the results depend on the processing

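No paired analysis was possible because each substrate has 1 library, and for the same reason leaving out a library does not apply. The signs of the medians over the 42 genes and over the isoform lists did not change. The 1.5-fold split in GelMA-PSS against GelMA did turn, from 5 higher and 2 lower to 2 higher and 5 lower with total counts. The alternatives for the isoform medians, the list medians and the wider lists, and the addition of Eno1b, were chosen after the data were seen.

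With total counts, the number of genes of the 42 past 2-fold in GelMA against TCP was 1. The median log2 ratio of the 42 genes was 0.06 in GelMA-PSS against GelMA and 0.24 in GelMA-PSS against TCP. For the muscle isoforms it was -0.69 in GelMA-PSS against TCP and -0.23 in GelMA against TCP, and for the other isoforms 0.19 in GelMA-PSS against GelMA and 0.74 in GelMA-PSS against TCP. Of 126 single ratios 34 were the same and 92 moved, with 6 changes of sign, and of 42 list medians 21 moved.

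With the length and GC correction, 1 of the 42 genes was past 2-fold in GelMA-PSS against GelMA, as was 1 gene of the wider lists. The median of the 42 genes was 0.16 in that comparison and 0.43 in GelMA-PSS against TCP, and that of the muscle isoforms -0.49 in GelMA-PSS against TCP and -0.22 in GelMA against TCP. Of the single ratios 74 moved, with 9 changes of sign, and of the list medians 18. The cause was not tested.

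With a pseudocount of 0.1, 1 of the 42 genes was past 2-fold in GelMA-PSS against GelMA and 1 in GelMA against TCP. The median of the other isoforms was 0.89 in GelMA-PSS against TCP and 0.66 in GelMA against TCP. Of the single ratios 3 moved, and 1 list median did.

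With a filter of 5 CPM, the median of the 42 genes was 0.26 in GelMA-PSS against GelMA. That of the muscle isoforms was -0.67 in GelMA-PSS against TCP and -0.42 in GelMA against TCP, and that of the other isoforms 0.65 in GelMA against TCP. None of 114 single ratios moved, and 3 list medians did. With no filter, the median of the other isoforms was 0.47 in GelMA against TCP and no single ratio moved. With median-of-ratios scaling 8 single ratios and none of the list medians moved.

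At a limit of 1.5-fold, the number of the 42 genes was 7 in GelMA-PSS against GelMA, 25 in GelMA-PSS against TCP and 11 in GelMA against TCP. For the wider lists it was 21, 30 and 7.

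Without transcript length, the share in TCP, GelMA and GelMA-PSS was 65.0%, 48.7% and 37.2% for Pfkm, 20.5%, 9.67% and 6.69% for Pgam2, 93.0%, 87.4% and 83.4% for Eno3, 92.0%, 85.3% and 78.3% for Pygm, 97.8%, 98.6% and 98.8% for Ldha, 33.6%, 28.4% and 20.5% for Hk2 and 44.8%, 61.7% and 68.8% for Pdk1. With Eno1b in the family, Eno3 held 41.3%, 27.7% and 21.5%. For Slc2a1 the share was 96.0% in TCP, and for Pfkfb3 22.1% in GelMA-PSS.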
